A study of Homo sapiens with 6 samples.

Results

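The nuclear genes of oxidative phosphorylation were taken as the protein-coding genes named for subunits of complexes I to V and their closest partners, that is symbols beginning with NDUF, UQCR, ATP5 or COX4 to COX8, together with SDHA to SDHD and CYC1. Of 100 such genes in GENCODE release 29, 91 had at least 1 transcript in the tables, out of 11387 genes in all. Libraries came from the human ocular melanoma line 92.1, 3 from its derivative with ALKBH3 knocked down (genotype ALKBH3 knockdown, labelled shALKBH3) and 3 from control cells (genotype WT, labelled NC). The 92.1 cells of both groups were grown in the same medium with serum, and no agent is named. ALKBH3 is a demethylase of alkylated DNA and of 1-methyladenosine in RNA, and the labels do not say whether NC cells carry a control hairpin or whether the knockdown line is 1 clone. No label says that the 3 libraries of a group are separate cultures, so p-values measure the spread between these libraries, which may be technical.

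Complex I oxidises NADH and complex II succinate, and both pass electrons through coenzyme Q to complex III. Cytochrome c carries them on to complex IV, which reduces oxygen, and the proton gradient made on the way drives complex V, the ATP synthase. Complexes I, III, IV and V mix subunits encoded in the nucleus with subunits encoded in mitochondrial DNA, whereas complex II is nuclear throughout. Many of the nuclear genes are known targets of the transcription factors NRF1, GABPA (an ETS-family factor) and YY1.

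By role, the 91 genes comprised 7 core subunits, 30 accessory subunits and 8 NDUFAF assembly factors of complex I, 4 subunits of complex II and 9 subunits of complex III plus UQCRHL, an intronless relative of UQCRH. Complex IV had 11 nuclear subunits, NDUFA4 among them because its product is now placed there, and the supercomplex factor COX7A2L. Complex V had 17 subunits, the inhibitor ATP5IF1, coupling factor B (ATP5S) and the readthrough gene ATP5MF-PTCD1. The tissue- or condition-restricted forms COX4I2, COX6A2, COX6B2, COX7A1, COX8C and NDUFA4L2 had no matched transcript among those listed and were not analysed here. Values are FPKM, fragments scaled by transcript length in kilobases and by the mapped fragments of the library, summed over the transcripts of a gene.

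RefSeq promoter windows (build GRCh38.p14, 250 bases before to 50 after a start, the first start given per gene) were matched for 73 of the 91 genes. They are shown because letters bound by these factors lie near the start of many members. Motifs were searched on both strands with overlapping matches allowed. The NRF1 motif, GCGC and TGCGC separated by 1 base of any kind, was in 17 member promoters (23.3%) and in 8.58% of 15843 promoters of protein-coding genes. The ETS motif CCGGAAG was in 21 (28.8%) and in 14.2% of all, and the YY1 motif AAGATGGCG in 8 (11%) and in 2.74% of all. By complex, 6 of 7 matched complex III promoters and 17 of 39 of complex I held at least 1 of the 3 motifs. None of the 10 matched complex IV promoters held the NRF1 letters and 5 held the ETS letters. For each motif the promoter of the gene with the smallest p in the comparison below is printed, 5′ to 3′ in the direction of the gene, with motif matches in capitals. They are NDUFS1 (ETS, chr2:206159395-206159694, minus strand), UQCRFS1 (NRF1, chr19:29213102-29213401, minus strand) and UQCRC1 (NRF1 and YY1, chr3:48609597-48609896, minus strand).
NDUFS1: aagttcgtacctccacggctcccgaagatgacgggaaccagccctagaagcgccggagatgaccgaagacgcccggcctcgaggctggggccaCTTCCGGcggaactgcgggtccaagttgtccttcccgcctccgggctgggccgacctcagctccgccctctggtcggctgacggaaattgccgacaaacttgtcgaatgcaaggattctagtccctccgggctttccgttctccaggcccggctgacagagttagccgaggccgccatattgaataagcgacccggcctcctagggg
UQCRFS1: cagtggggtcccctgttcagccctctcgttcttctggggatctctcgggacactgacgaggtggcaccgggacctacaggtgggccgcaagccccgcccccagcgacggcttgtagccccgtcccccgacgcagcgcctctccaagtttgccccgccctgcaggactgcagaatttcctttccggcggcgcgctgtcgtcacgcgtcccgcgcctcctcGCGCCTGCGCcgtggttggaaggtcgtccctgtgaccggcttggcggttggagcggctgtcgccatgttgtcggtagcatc
UQCRC1: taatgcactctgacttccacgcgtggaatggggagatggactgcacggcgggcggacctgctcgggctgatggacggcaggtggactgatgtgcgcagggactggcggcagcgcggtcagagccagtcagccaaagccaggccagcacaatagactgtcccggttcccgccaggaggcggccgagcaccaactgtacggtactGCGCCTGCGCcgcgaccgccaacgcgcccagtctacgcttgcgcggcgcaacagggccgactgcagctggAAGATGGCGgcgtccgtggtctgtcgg
Median log2 differences between shALKBH3 and NC were -0.27 for 16 tested genes with the NRF1 letters and -0.25 for 56 without. They were -0.33 for 21 genes with the ETS letters and -0.23 for 51 without, and -0.23 for 8 with the YY1 letters and -0.25 for 64 without.

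Listed FPKM summed to between 326875 and 333987 in shALKBH3 and between 340950 and 361268 in NC, and sequencing depth is unknown. ALKBH3 averaged 3.71 ± 0.487 FPKM in shALKBH3 and 10.1 ± 0.787 FPKM in NC (SD, n = 3 each), a log2 difference of -1.24 (limma adjusted p = 0.0079). Of 10 melanocyte markers MITF and GPR143 were measured, and their sum ran from 21.8 to 25.7 FPKM in shALKBH3 and from 17.7 to 21.2 FPKM in NC. MITF averaged 11.8 ± 1.95 FPKM in shALKBH3 and 6.91 ± 3.24 FPKM in NC (SD, n = 3 each). GPR143 averaged 12.4 ± 1.32 and 12.7 ± 1.48 FPKM in the same order. PMEL, MLANA, TYR and the other melanocyte markers had no matched transcript among those listed and were not analysed here. Of the lists for other cell types, 0 of 5 leukocyte, 0 of 4 endothelial and 0 of 4 epithelial markers were measured. The fibroblast list had 3 of 5 markers measured, with sums of 23.8 to 29.1 FPKM in shALKBH3 and 23.2 to 34.4 FPKM in NC. In bulk RNA, fewer cells of a type and less RNA per cell cannot be told apart.

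Most nuclear respiratory chain genes stood slightly lower in the knockdown libraries, and no single one passed the test. The comparison used limma on log2(FPKM + 1) over the 10475 genes that averaged 1 FPKM or more across the 6 libraries, with Benjamini-Hochberg adjustment over all of them. NDUFAF5, with a mean of 0.586 FPKM, did not reach that level, which left 90 members. At an adjusted p under 0.05, 0 members were higher (1.28% of all genes) and 0 lower (0.477% of all genes), with 1.76% of all genes past it in either direction. At an unadjusted p under 0.05, 27 of the 90 were lower (8.15% of all genes) and 0 higher (8.98% of all genes). In 29 members all 3 shALKBH3 libraries lay below all 3 NC libraries (12.0% of all genes), and in 0 they lay above (12.9% of all genes). A negative log2 difference was found in 79 of 90 members and in 51.3% of all genes. The median log2 difference was -0.24 over the members and -0.01 over all genes. Without shALKBH3 replicate 2, 10 members were lower at an unadjusted p under 0.05 (5.71% of all genes), without NC replicate 3 also 10 were (5.22% of all genes), and without both libraries 7 were (4.21% of all genes), with 76 of 90 differences still negative.

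**Figure D1:**
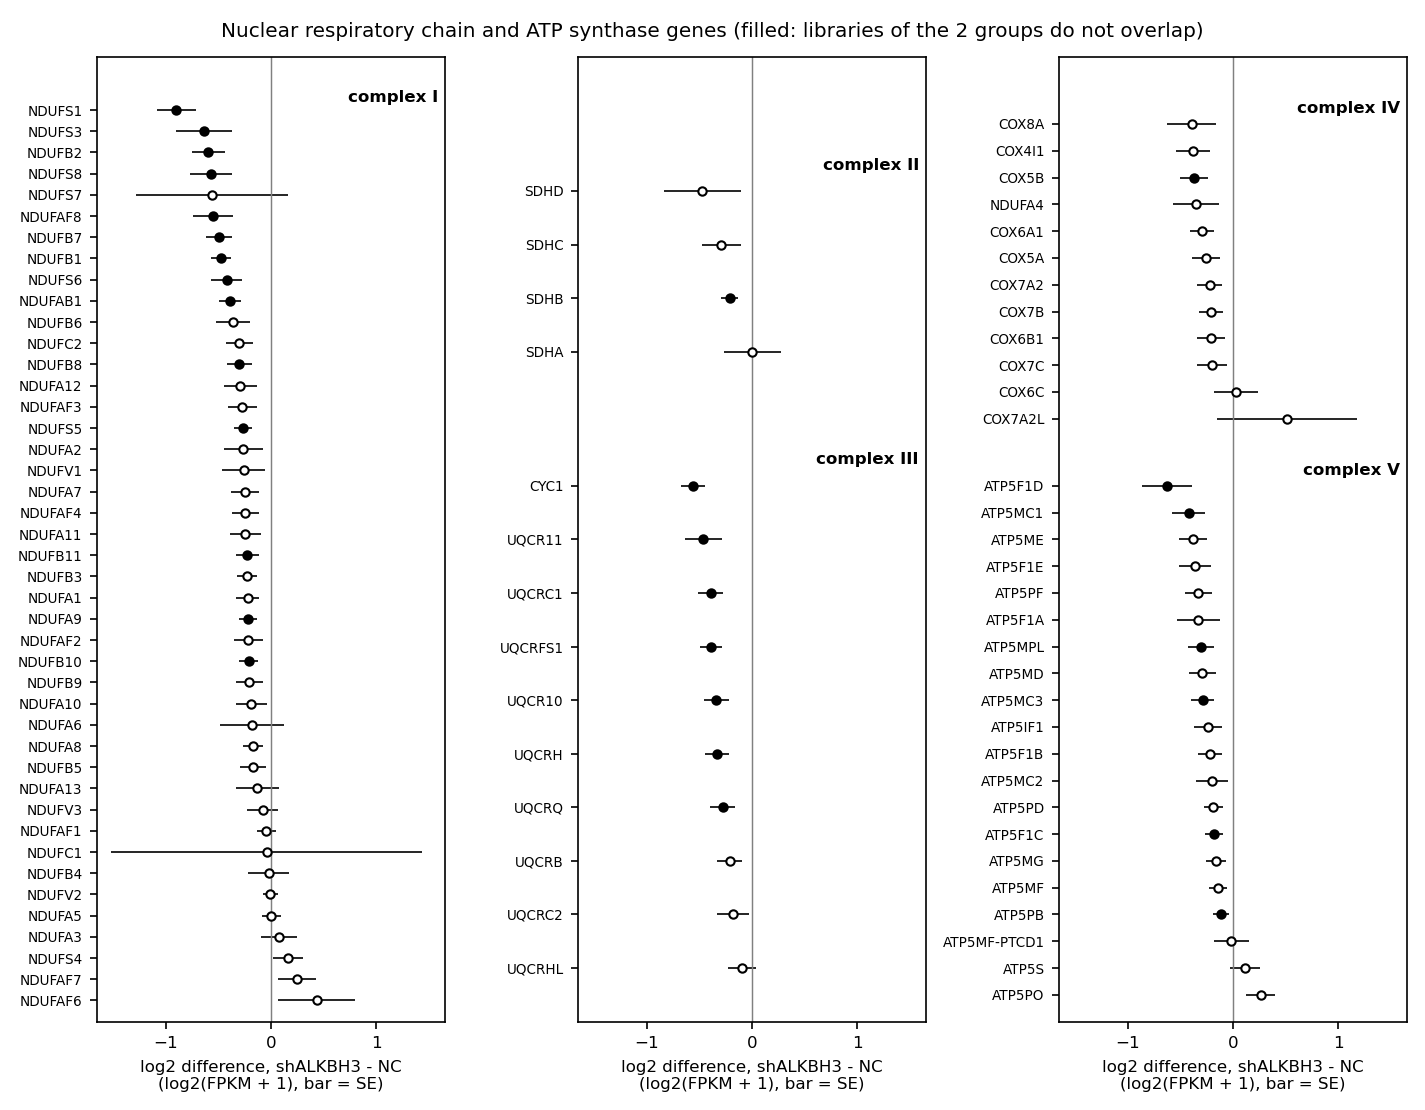
Log2 difference (shALKBH3 minus NC, log2(FPKM + 1)) of the tested genes by complex, with 1 complex I gene not drawn, bars for the standard error and filled points where the 3 libraries of each group do not overlap. Of the points 79 lie left of 0, all 10 of complex III among them, and every filled point does.

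Summed over each complex, the levels were 14.9% to 21.0% lower in shALKBH3. Complex III summed to 774, 707 and 715 FPKM in shALKBH3 replicates 1, 2 and 3, against 926, 815 and 1039 FPKM in NC replicates 1, 2 and 3, a difference of -21.0%. Complex I summed to 2132, 1923 and 2001 FPKM in shALKBH3, against 2351, 2213 and 2660 FPKM in NC (-16.2%), and complex V to 2131, 1927 and 1972 FPKM in shALKBH3, against 2381, 2149 and 2571 FPKM in NC (-15.1%). In these 3 complexes no knockdown sum reached a control sum, whereas the groups overlapped in complexes IV (-14.9%) and II (-18.7%). The same held after size-factor scaling, but in complex V shALKBH3 replicate 1 then came to 2091 FPKM and NC replicate 2 to 2098 FPKM. Of all listed FPKM the members made up 2.02%, 1.81% and 1.85% in shALKBH3 replicates 1, 2 and 3. In NC replicates 1, 2 and 3 they made up 2.07%, 1.97% and 2.30%, so the groups overlapped in that share. Complex IV summed to 1557, 1234 and 1348 FPKM in shALKBH3, against 1601, 1411 and 1853 FPKM in NC. Complex I made up 31.6% to 32.4% of the member FPKM in shALKBH3 libraries and 31.6% to 32.9% in NC libraries, and complex V 31.6% to 32.5% in shALKBH3 and 30.9% to 32.0% in NC. Complex III made up 11.5%, 11.9% and 11.6% in shALKBH3 replicates 1, 2 and 3, against 12.4%, 12.1% and 12.5% in NC replicates 1, 2 and 3. Every knockdown share of complex III was below every control share, while those of complexes I, II, IV and V overlapped.

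Libraries within a group differed by about as much as the groups did. NC replicate 3 had the highest value of 62 of the 90 members, and shALKBH3 replicate 2 the lowest value of 39. The median deviation of the members from their mean over the 6 libraries was -0.03, -0.22 and -0.14 on the log2 scale in shALKBH3 replicates 1, 2 and 3, and 0.11, 0.01 and 0.27 in NC replicates 1, 2 and 3. Thus shALKBH3 replicate 1 and NC replicate 2 lay close to each other. The same medians over all genes lay between -0.01 and 0.03.

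**Figure D2:**
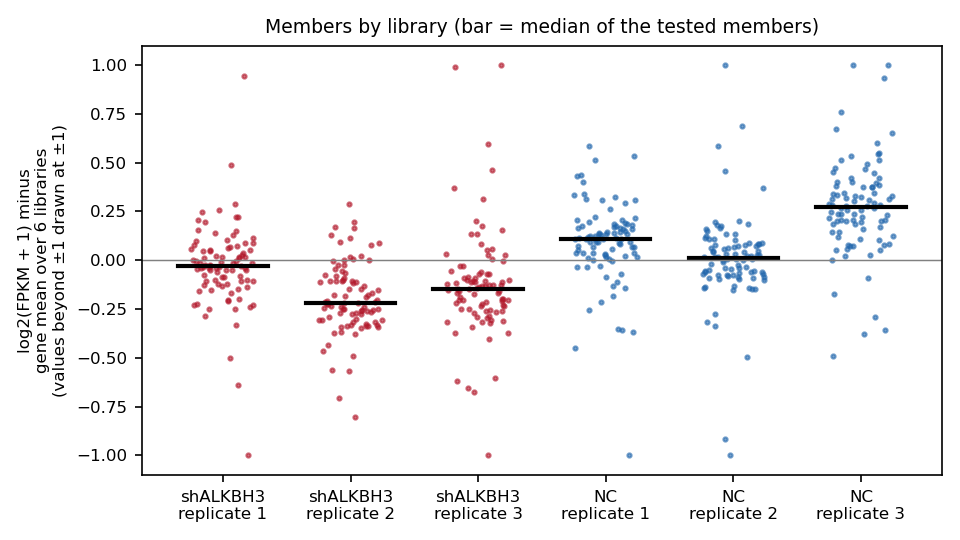
Each point is 1 of the 90 tested members in 1 library, as log2(FPKM + 1) minus that gene's mean over the 6 libraries, with bars for the library medians. The medians run from -0.22 in shALKBH3 replicate 2 to 0.27 in NC replicate 3, and shALKBH3 replicate 1 (-0.03) and NC replicate 2 (0.01) lie next to each other.

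The members are short genes, and length moved with the difference across the whole table. Their median transcript length was 973 nucleotides (2882 over all tested genes), and 64 of the 90 were among the shortest 20% of tested genes, at 207 to 1632 nucleotides. Among these the median log2 difference was -0.25 for members and -0.16 for all genes, with 58 of 64 members and 74.1% of all genes negative. Among longer genes the medians lay further apart. They were -0.32 for 4 members against 0.06 for all genes of 3450 to 4996 nucleotides. Above that they were -0.25 for 4 members against 0.11 for all genes. These last 4 members were NDUFS1, NDUFA9, SDHC and ATP5S. With FPKM multiplied by transcript length, an alternative chosen after seeing the data, their differences were 0.05, -0.23, 0.08 and 0.20. After removal of each library's trend with length and GC content, the median over members was -0.11 (-0.02 over all genes), 70 of 90 were negative, and 14 were lower at an unadjusted p under 0.05 (8.58% of all genes).

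**Figure D3:**
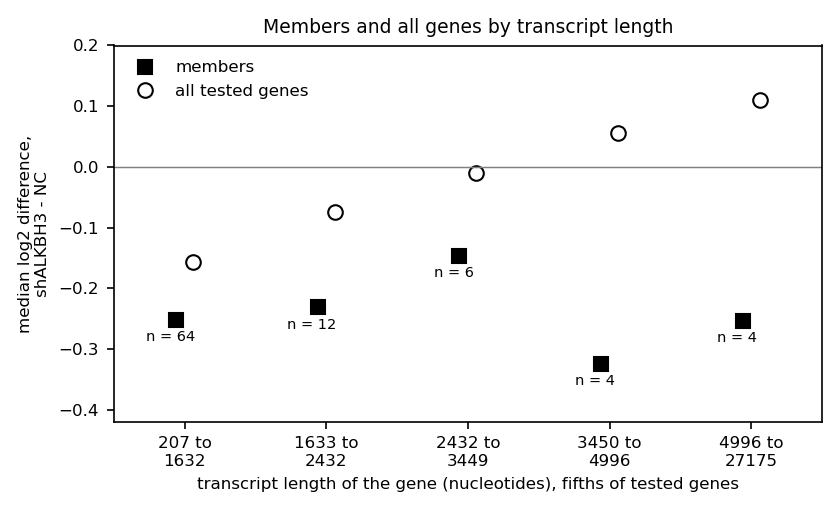
Median log2 difference (shALKBH3 minus NC) of the members (squares, with their number) and of all tested genes (circles) in 5 equal classes of transcript length. The circles climb from -0.16 in the shortest class to 0.11 in the longest, and the squares, from summed FPKM, stay between -0.15 and -0.32.

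Complex III had the most uniform pattern. All 10 of its genes had negative differences (51.3% of all genes), with a median of -0.34. In 7 of its 9 subunits every shALKBH3 library lay below every NC library (12.0% of all genes). CYC1, which encodes the haem-bearing cytochrome c1, was at 23.2, 21.1 and 23.7 FPKM in shALKBH3 replicates 1, 2 and 3, against 35.3, 29.2 and 37.4 FPKM in NC replicates 1, 2 and 3. Every knockdown library was below every control, and the log2 difference of -0.56 (SE 0.114) had an unadjusted p of 0.0025 and a limma adjusted p of 0.088. UQCRFS1, the Rieske iron-sulfur protein whose promoter is printed above, was at 49.2, 45.8 and 45.5 FPKM in shALKBH3, against 59.2, 55.9 and 70.2 FPKM in NC (log2 -0.39, limma adjusted p = 0.15). UQCRC1, a core protein of the matrix side, was at 54.8, 43.3 and 47.1 FPKM in shALKBH3, against 68.6, 57.1 and 65.3 FPKM in NC (log2 -0.39, limma adjusted p = 0.19). Neither passed, and in both the groups were separate.

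The hinge protein gene UQCRH was the most abundant of the complex, at 274, 237 and 237 FPKM in shALKBH3 and 318, 276 and 352 FPKM in NC (log2 -0.33, limma adjusted p = 0.22). UQCRQ was next, at 107, 103 and 103 FPKM in shALKBH3 and 128, 109 and 146 FPKM in NC. UQCRC2, the partner of UQCRC1, had the smallest difference of the subunits, -0.18, and its libraries overlapped. Levels per length thus spread widely within 1 complex, from a mean of 22.7 FPKM for CYC1 to 249 FPKM for UQCRH in shALKBH3 and from 34.0 to 315 FPKM in NC. UQCRHL was at 1.34 ± 0.0672 FPKM in shALKBH3 and 1.51 ± 0.287 FPKM in NC (SD, n = 3 each), and how fragments were divided between it and UQCRH is not known.

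**Figure D4:**
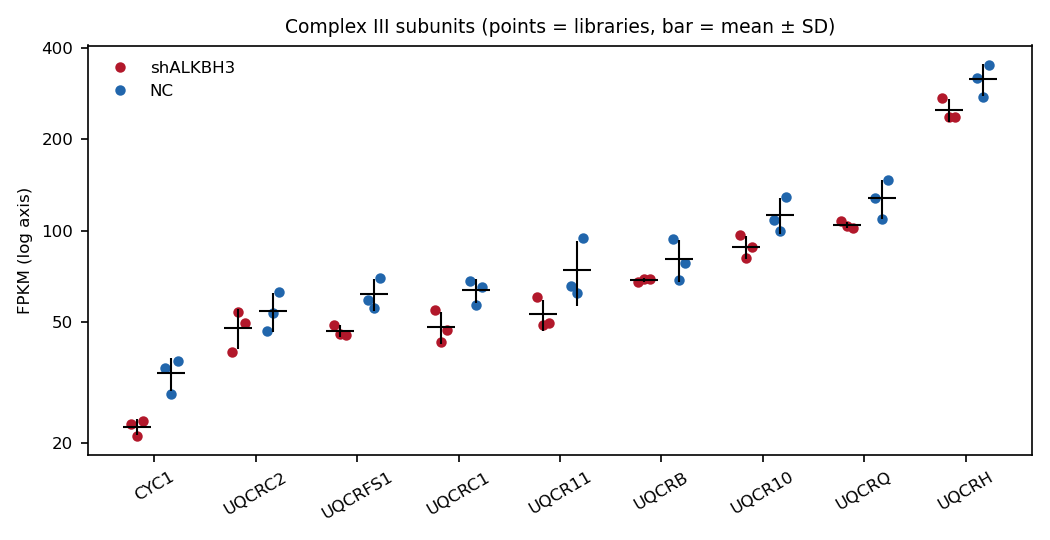
FPKM (log axis) of the 9 complex III subunits, with points for libraries and bars for the mean ± SD of each group. From CYC1 to UQCRH each shALKBH3 mean is below its NC mean, and the groups overlap for UQCRC2 and UQCRB.

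In complex I, 33 of 37 subunits had negative differences (51.3% of all genes), with a median of -0.23. At an unadjusted p under 0.05, 10 were lower (8.15% of all genes). In 13 every shALKBH3 library lay below every NC library (12.0% of all genes). The core subunits, which carry the redox centres and the quinone site, had a median of -0.56 over 7 genes, and the 30 accessory subunits one of -0.22. The core median is the value of NDUFS7 (SE 0.717), and it was -0.29 for core and -0.22 for accessory subunits with FPKM multiplied by transcript length, and -0.28 and -0.08 after removal of the length and GC trend. NDUFB1, an accessory subunit of the membrane arm, had the smallest p of all members. It was at 65.9, 64.1 and 63.7 FPKM in shALKBH3 replicates 1, 2 and 3, against 101, 82.4 and 87.8 FPKM in NC replicates 1, 2 and 3 (log2 -0.47, SE 0.0915, unadjusted p = 0.0018, limma adjusted p = 0.076). Its main transcript taken by itself, NDUFB1-201, was at 54.2, 42.1 and 44.6 FPKM in shALKBH3 and 62.1, 30.1 and 66.8 FPKM in NC, a log2 difference of -0.10, and the groups overlapped.

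NDUFB7 was at 54.0, 54.3 and 51.7 FPKM in shALKBH3, against 68.4, 68.8 and 91.0 FPKM in NC (log2 -0.49, limma adjusted p = 0.14). NDUFB2 was at 52.5, 36.3 and 44.2 FPKM in shALKBH3, against 63.0, 61.2 and 76.6 FPKM in NC (log2 -0.59, limma adjusted p = 0.15). Both are accessory subunits of the membrane arm, and in both every knockdown library was the lower. The most abundant subunits were NDUFS5 (264 ± 11.5 FPKM in shALKBH3 and 318 ± 25.1 FPKM in NC, SD, n = 3 each) and NDUFA1 (123 ± 10.8 and 144 ± 15.1 FPKM in the same order), and NDUFA1 overlapped between the groups. NDUFS4, an accessory subunit of the NADH-binding arm, had the largest positive difference of complex I subunits, 0.16 (limma adjusted p = 0.60). Its values were 59.3, 68.6 and 62.0 FPKM in shALKBH3 and 64.7, 60.8 and 45.8 FPKM in NC. The core subunit NDUFV2 averaged 103 ± 4.45 FPKM in shALKBH3 and 104 ± 4.89 FPKM in NC (SD, n = 3 each), a difference of -0.01 on the log2 scale.

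NDUFS1, the largest core subunit and an iron-sulfur protein of the NADH-binding arm, had the largest difference of all members in summed FPKM, and its value depended on how transcripts are added up. Its summed FPKM was 8.86, 10.9 and 11.1 in shALKBH3 replicates 1, 2 and 3, against 22.0, 23.7 and 15.1 in NC replicates 1, 2 and 3 (log2 -0.90, SE 0.186, limma adjusted p = 0.088). The sum passed without NC replicate 3 (log2 -1.09, limma adjusted p = 0.046) and after removal of the length and GC trend (log2 -1.03, limma adjusted p = 0.021). Its longest transcript, NDUFS1-201 of 11819 nucleotides, stood the other way, at 8.86, 8.20 and 8.38 FPKM in shALKBH3 and 4.83, 6.03 and 6.13 FPKM in NC (log2 0.51, unadjusted p = 0.0096, limma adjusted p = 0.32 over 19698 transcripts). The shorter NDUFS1-204 of 2394 nucleotides was listed at 0, 0 and 2.50 FPKM in shALKBH3 and at 17.2, 16.4 and 0 FPKM in NC. NDUFS1-209, of 2171 nucleotides, took 8.12 FPKM in NC replicate 3 and no more than 1.37 FPKM in any other library.

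FPKM divides fragments by length, so fragments assigned to a short transcript weigh more in the sum than the same fragments on a long one. With FPKM multiplied back by transcript length in kilobases, an alternative chosen after seeing the data, NDUFS1 came to relative fragment numbers of 105, 103 and 106 in shALKBH3 and 98.3, 113 and 91.9 in NC, a log2 difference of 0.05 (limma adjusted p = 0.80). On that scale the NDUFS1 groups overlapped. Over the 90 members that scale gave a median of -0.22, with 76 negative and 25 lower at an unadjusted p under 0.05 (8.22% of all genes), and CYC1, with its 1 listed transcript, had -0.56 (limma adjusted p = 0.090). NDUFC1 and NDUFS7 also had values that swung within groups. NDUFC1 was at 2.13, 10.5 and 21.3 FPKM in shALKBH3 and 0.0158, 20.6 and 38.9 FPKM in NC, and NDUFS7 at 12.7, 3.34 and 2.36 FPKM in shALKBH3 and 9.11, 2.76 and 15.8 FPKM in NC.

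**Figure D5:**
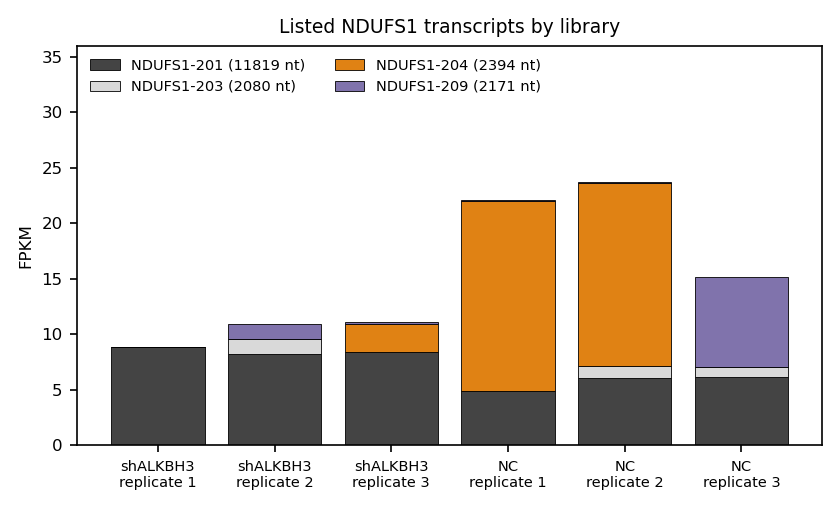
FPKM of the 4 listed NDUFS1 transcripts stacked by library, with transcript lengths in the legend. NDUFS1-201 is higher in each shALKBH3 library (8.20 to 8.86 FPKM) than in any NC library (4.83 to 6.13 FPKM), while NDUFS1-204 or NDUFS1-209 makes up most of each NC bar.

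Among the NDUFAF assembly factors of complex I, 5 of 7 tested were negative (51.3% of all genes). NDUFAF8 was at 37.1, 23.8 and 28.6 FPKM in shALKBH3, against 38.2, 40.7 and 52.5 FPKM in NC (log2 -0.55, limma adjusted p = 0.24). It was the 1 of 7 whose groups were separate, with shALKBH3 lower, as in 12.0% of all genes. NDUFAF3, NDUFAF4 and NDUFAF2 had differences of -0.27, -0.24 and -0.22 with limma adjusted p-values of 0.36, 0.39 and 0.46. The catalytic flavoprotein gene SDHA of complex II averaged 18.0 ± 5.66 FPKM in shALKBH3 and 17.9 ± 5.30 FPKM in NC (SD, n = 3 each). SDHB, its iron-sulfur partner, was at 63.7, 73.2 and 67.1 FPKM in shALKBH3, against 76.7, 76.4 and 83.2 FPKM in NC (log2 -0.21, limma adjusted p = 0.28), without overlap. The membrane anchors SDHC (13.2 ± 0.189 FPKM in shALKBH3 and 16.7 ± 4.27 FPKM in NC) and SDHD (41.0 ± 12.7 and 59.0 ± 22.8 FPKM in the same order) overlapped between groups.

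In complex IV, 10 of 11 subunits had negative differences (51.3% of all genes), with a median of -0.26. At an unadjusted p under 0.05, 2 of them were lower (8.15% of all genes). The groups were separate in COX5B alone, 1 of 11, a share below the 12.0% of all genes. COX5B, a zinc-binding subunit of the matrix side, was at 89.3, 73.1 and 79.6 FPKM in shALKBH3, against 89.5, 104 and 121 FPKM in NC (log2 -0.37, limma adjusted p = 0.25). The highest knockdown value lay only just under the lowest control value. COX6A1, the form used outside heart and muscle, was at 237, 198 and 204 FPKM in shALKBH3 and 256, 236 and 293 FPKM in NC (log2 -0.29, limma adjusted p = 0.27). COX4I1, the common form of subunit 4, was at 73.6, 58.0 and 54.0 FPKM in shALKBH3 and 72.0, 74.1 and 96.3 FPKM in NC (log2 -0.38, limma adjusted p = 0.31). The differences were -0.26 for COX5A, -0.39 for COX8A, -0.35 for NDUFA4, -0.22 for COX7A2 and -0.21 for COX6B1, the most abundant, which averaged 255 ± 21.4 FPKM in shALKBH3 and 296 ± 47.6 FPKM in NC (SD, n = 3 each). None of these passed.

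COX6C, the exception among the subunits, averaged 133 ± 7.80 FPKM in shALKBH3 and 133 ± 36.6 FPKM in NC (SD, n = 3 each), with NC replicate 3 the lowest of the 6 libraries at 92.9 FPKM. COX7A2L, which joins complexes III and IV into supercomplexes, was at 76.6, 43.4 and 82.4 FPKM in shALKBH3 and 54.1, 16.0 and 105 FPKM in NC. Its difference of 0.51 (SE 0.663) was -0.21 without NC replicate 2.

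In complex V, 16 of 17 subunits had negative differences (51.3% of all genes, 74.1% of the shortest 20%), with a median of -0.29. At an unadjusted p under 0.05, 6 were lower (8.15% of all genes). ATP5F1D, the delta subunit of the catalytic F1 head's central stalk, was at 26.5, 25.2 and 17.8 FPKM in shALKBH3, against 30.9, 30.1 and 49.2 FPKM in NC (log2 -0.63, limma adjusted p = 0.26). The c-ring subunit is encoded by 3 genes with the same mature protein. Of these, ATP5MC1 was at 74.5, 51.9 and 61.7 FPKM in shALKBH3, against 79.8, 76.6 and 95.3 FPKM in NC (log2 -0.42, limma adjusted p = 0.25). ATP5MC3 was at 23.8, 20.5 and 22.5 FPKM in shALKBH3, against 26.4, 25.3 and 30.9 FPKM in NC (log2 -0.29, limma adjusted p = 0.25). ATP5MC2 overlapped between the groups, at 89.2 ± 17.2 FPKM in shALKBH3 and 102 ± 11.2 FPKM in NC (SD, n = 3 each).

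ATP5ME, a small subunit of the membrane part, averaged 178 ± 15.7 FPKM in shALKBH3 and 234 ± 35.6 FPKM in NC (log2 -0.38, limma adjusted p = 0.23). The stalk subunit ATP5PD was the most abundant of all members, at 291 ± 13.6 FPKM in shALKBH3 and 333 ± 31.9 FPKM in NC, and ATP5MD was next within complex V at 218 ± 5.96 and 270 ± 43.0 FPKM in the same order. ATP5PO, which links the F1 head to the peripheral stalk, was the one subunit with a positive difference. It was at 125, 109 and 119 FPKM in shALKBH3 and 83.5, 118 and 94.9 FPKM in NC (log2 0.26, limma adjusted p = 0.38). The inhibitor ATP5IF1, which blocks ATP hydrolysis by the enzyme, had a difference of -0.24 (limma adjusted p = 0.40).

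At the level of single transcripts, 225 of 258 member transcripts reached a mean of 1 FPKM. With limma over 19698 transcripts, 0 passed in either direction (0.472% of all transcripts). At an unadjusted p under 0.05, 22 were lower (4.75% of all) and 2 higher (4.99% of all). The higher ones were NDUFS1-201 and NDUFA6-201. In 35 transcripts the groups were separate with shALKBH3 lower (8.9% of all), and in 4 with shALKBH3 higher (9.08% of all). The lowest p belonged to UQCR11-203, the main transcript of a small complex III subunit, at 44.3, 47.4 and 47.0 FPKM in shALKBH3 and 64.5, 59.6 and 69.2 FPKM in NC (log2 -0.47, limma adjusted p = 0.16). ATP5F1A-215, the main transcript of the alpha subunit of the F1 head, was at 81.6, 87.5 and 110 FPKM in shALKBH3 and 143, 137 and 136 FPKM in NC (log2 -0.58, limma adjusted p = 0.23), whereas the ATP5F1A gene sums overlapped. In shALKBH3 replicate 3 a second transcript, ATP5F1A-213, took 45.1 FPKM, against at most 0.213 FPKM in the other 5 libraries.

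Of the partners of the complexes, 1 gene passed. TACO1, a translational activator of the mitochondrially encoded COX1 subunit, fell to 10.8, 11.0 and 11.2 FPKM in shALKBH3, against 18.5, 15.5 and 17.5 FPKM in NC (log2 -0.59, SE 0.0928, limma adjusted p = 0.042). The call was lost without any 1 library (adjusted p from 0.057 to 0.16), under size-factor scaling (0.052) and after removal of the length and GC trend (0.086). It was the 1 of 23 tested complex IV assembly genes to pass, where 1.76% of all genes did, and the list's median was -0.11. COX18, a membrane insertase for COX2, had a difference of 0.49 (limma adjusted p = 0.21).

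In the other assembly lists 0 genes passed. Complex III assembly had a median of -0.50 over 6 genes, with UQCC3 at 4.92 ± 0.385 FPKM in shALKBH3 and 7.87 ± 1.02 FPKM in NC (SD, n = 3 each, log2 -0.58, limma adjusted p = 0.090). BCS1L, which inserts the Rieske protein, had a difference of -0.59 (limma adjusted p = 0.22). Of the 6 genes 5 were negative. UQCC1 stood the other way at 0.61 (limma adjusted p = 0.24), with every shALKBH3 library above every NC library. The further complex I assembly genes had a median of -0.25 over 12, with FOXRED1 at -0.67 (limma adjusted p = 0.12) and TMEM70 at -0.28 (0.25). Complex II assembly had a median of -0.13 over 4, with SDHAF4 at -0.23 (0.58) and SDHAF3 at -0.12 (0.65). ATP synthase assembly had one of -0.37 over 3, with FMC1 at -0.37 (0.35) and ATPAF1 at -0.46 (0.42). Electron carriers, that is cytochrome c and coenzyme Q synthesis, had a median of -0.09 over 15, with COQ3 at -0.29 (0.20) and COQ8A at -0.47 (0.31).

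Of 11 tested regulators of respiratory chain genes, some of which act on mitochondrial DNA or RNA, 0 passed, with a median of -0.12. NRF1, GABPA and YY1, the factors of the promoter motifs, had differences of -0.19, 0.14 and -0.07. Their limma adjusted p-values were 0.42, 0.53 and 0.87, and the groups overlapped in each. TFB1M, which methylates mitochondrial ribosomal RNA, was at 12.2, 14.0 and 12.1 FPKM in shALKBH3, against 18.1, 18.2 and 17.9 FPKM in NC (log2 -0.47, limma adjusted p = 0.071). POLRMT, the mitochondrial RNA polymerase, had a difference of -0.30 (limma adjusted p = 0.41). The 13 mitochondrially encoded subunits summed to 46660, 48237 and 50780 FPKM in shALKBH3 and 61914, 53249 and 53091 FPKM in NC (-13.4%), without overlap. Of all listed FPKM they made up 14.0%, 14.8% and 15.2% in shALKBH3 replicates 1, 2 and 3. In NC replicates 1, 2 and 3 they made up 17.2%, 15.6% and 14.7%, so the groups overlapped in that share. Of the 13, 11 had negative differences (51.3% of all genes), with a median of -0.20. In 9 every shALKBH3 library lay below every NC library (12.0% of all genes). MT-CO2 was at -0.38 (limma adjusted p = 0.13) and MT-CO3 at -0.32 (0.18). Nuclear member FPKM came to 14.4%, 12.3% and 12.2% of the mitochondrially encoded sum in shALKBH3 and to 12.0%, 12.6% and 15.7% in NC, so the groups overlapped in that ratio.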

How the data were processed

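RNA from 3 shALKBH3 and 3 NC samples of the line 92.1 was fragmented, random-primed and copied with dUTP in the second strand, per the labels' protocols. The authors deposited FPKM per transcript, per the file headers. The submitters' processing notes name hg19 and HTSeq 0.6.0 without a role for either. The sources used here do not give the aligner, the FPKM tool, the annotation or the strand setting. In every listed transcript the higher group mean was at least 0.5 FPKM. Depth is unknown, so no counting interval is given.

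Of 28900 transcripts 28796 (99.6%) matched GENCODE release 29 (GRCh38), used for names, lengths and GC content. FPKM were summed per gene. Genes averaging 1 FPKM or more were tested as log2(FPKM + 1), so folds of low genes are understated, with limma 3.58.1 in R 4.3.3 (variance trend, two-sided, threshold 0.05 on the adjusted p). Python 3.11.15, pandas 2.3.3, numpy 2.4.6 and matplotlib 3.10.9 were used for the rest. The length and GC correction was a loess fit per library with a span of 0.3. Many members have processed pseudogenes, and how shared fragments were assigned is not known.

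In simulated data for 10475 genes, 200 were changed, drawn only from genes above 5 FPKM by their mean log2(FPKM + 1). Noise was drawn independently for each gene, without shifts shared by a library. The fit recovered 29.9% of 1.5-fold, 59.7% of 2-fold and 92.4% of 4-fold changes, and 5 of 126 calls were unchanged genes. Recovery among lower genes was not simulated. The members and lists were chosen with earlier results of these data known. Named genes are ALKBH3, all of SDHA to SDHD, the 4 subunits with the smallest p, the 2 most abundant and the one with the largest positive difference in complexes I, III, IV and V, the 4 NDUFAF factors with the smallest p, paralogous forms, and 2 genes per further list. Other genes were named after their values were seen. The values of 1 complex I member enter the counts and sums and are not reported here. Lists for mitochondrial import and the tricarboxylic acid cycle were also examined. Alternatives were another pseudocount, other filters, scalings, variance model, transcript summaries, a replicate block and leaving out libraries.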

Additional observations from a re-analysis of the deposited data

How the results depend on the processing

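Depth is unknown and 3 libraries per group limit the precision. Genes past the threshold numbered 134 higher and 50 lower in limma, 80 and 25 when each gene was its most abundant transcript, 27 lower without the variance trend, and 39 to 88 higher and 9 to 22 lower with 1 library left out. Without both NC replicate 3 and shALKBH3 replicate 2, an alternative chosen after seeing the data, 1 was higher and 0 lower.

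The replicate numbers did not pair the samples (correlations of deviations -0.09, 0.08 and -0.01). With a replicate block 17 genes were higher and 3 lower, 0 members passed, 0 complex IV assembly genes passed, and ALKBH3 and TACO1 had adjusted p-values of 0.098 and 0.19. Not every library correlated most with its own number.

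Among members, 0 were higher and 0 lower past the threshold; 1 was lower after removal of the length and GC trend, and 0 to 1 with 1 library left out, NDUFS1 in both. Of member transcripts 0 passed, and 0 to 1 with 1 library left out (ATP5F1E-202, without shALKBH3 replicate 1). The 27 members lower at an unadjusted p under 0.05 became 14 after the length and GC correction, 10 to 38 with 1 library left out and 7 without both libraries named above. The same correction moved the median of all members to -0.11 and that of complex I to -0.080. These shifts were larger than the pooled SD of the library medians within groups (0.115 for all members and 0.0977 for complex I). They were smaller than the range of the members' library medians, from -0.22 to 0.27. The 1 complex IV assembly gene past the threshold became 0 under size-factor scaling, the length and GC correction, no variance trend, the most abundant transcript, FPKM times length, the library pair left out, and, with 1 library left out, 0 in every case.

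Some named genes turned direction, none of them past the threshold at the turned value. With the most abundant transcript the differences were 1.80 (ATP5MC2), 0.51 (NDUFS1), -0.24 (SDHA) and 0.15 (SDHC). With FPKM times length they were 0.024 (ATP5MC2), 0.049 (NDUFS1) and 0.081 (SDHC). COX6B1 was 0.0014 after the length and GC correction and SDHA -0.0038 under quantile normalization. COX6C ranged from -0.21 to 0.20, SDHA from -0.23 to 0.22 and COX7A2L from -0.21 (without NC replicate 2) to 1.11 with 1 library left out, and without both libraries COX6C was -0.17 and NDUFS4 -0.048. The causes were not tested.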

Other observations

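Of 13 tested genes of mitochondrial import and mass 0 passed, with 11 negative, a median of -0.12, and 4 lower (8.15% of all genes) and 1 higher (8.98% of all genes) at an unadjusted p under 0.05. TOMM20, an import receptor of the outer membrane, was at 85.5, 85.2 and 84.9 FPKM in shALKBH3, against 103, 102 and 106 FPKM in NC (log2 -0.28, limma adjusted p = 0.092). TIMM44, which tethers the import motor, had a difference of -0.45 (limma adjusted p = 0.15).

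Of 13 tested genes of the tricarboxylic acid cycle 0 passed, with 6 negative, a median of 0.06, and 4 lower (8.15% of all genes) and 1 higher (8.98% of all genes) at an unadjusted p under 0.05. MDH2 and FH, which encode malate dehydrogenase and fumarase, had differences of -0.30 and -0.24 (limma adjusted p = 0.20 each). Citrate synthase (CS, in both lists), named after its values were seen, was at 18.5, 20.7 and 59.5 FPKM in shALKBH3, against 10.8, 14.3 and 10.5 FPKM in NC (log2 1.21, limma adjusted p = 0.25), with shALKBH3 replicate 3 far above the rest.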
